A study of Brassica napus with 6 samples.

Results

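The genes described here are the 200 whose RNA level varied least over 6 seed libraries of oilseed rape (Brassica napus), out of 72611 genes in the deposited count table. They were chosen among 9633 genes with an ID that starts with Bna and a mean of 20 to 500 CPM, the count of a gene scaled to a common library total. For each of these, the count in a library was divided by that library's size factor, 10 was added, and the log2 was taken. The 200 genes with the smallest standard deviation (SD) of this value over the 6 libraries were kept. The size factor is the median ratio of a library's counts to the geometric mean over all libraries, so a stable gene is one that follows the median gene.

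The libraries were made from total RNA of whole seeds of control plants at 30, 40 and 50 days after flowering, and of plants droughted since flowering began, on the same days. Each of the 6 combinations had 1 library, so no value below has a replicate error. All plants grew under a shelter against rain, and the labels mention 6 lines without saying which line gave which seeds. Library totals ran from 10314859 to 16177156 counts. Seed identity could not be checked on marker genes, since the files do not pair IDs with gene names and 0 IDs matched the RefSeq table of the Da-Ae assembly. For the same reason no member has a gene name or a role here.

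Genes of steady level serve as internal references when the RNA of another gene is measured, for instance by quantitative PCR, where the target is expressed relative to them. A maturing oilseed is a hard case for such genes, because transcripts for seed storage proteins and oil body proteins come to fill much of the RNA pool as the embryo fills. A gene of constant output can then shrink as a share of the pool. In whole seeds, fewer cells of a type and less RNA per cell cannot be told apart.

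The 200 genes kept close to 1 level through 20 days of seed filling and under drought, by construction of the list. Their SD ran from 0.03 to 0.12 on the log2 scale, with a median of 0.11, where the median of the 9633 genes was 0.42. Of the 200, 122 differed by at least 1.2-fold between their highest and lowest library, against 99.2% of the 9633 genes, and 0 by 2-fold, against 55.8%. The highest library of a member stood 1.05 to 1.30-fold above its lowest, with a median of 1.21-fold, against a median of 2.15-fold over the 9633 genes. These values, and all values of the list in these libraries, were used to choose the genes and are given without a test. The edge of the list is not a gap. BnaA03g42550D and BnaC04g20680D, the last genes inside, had SDs of 0.1218 and 0.1219, and BnaA10g06200D and BnaA03g46840D, the first outside, had 0.1219 and 0.1221.

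**Figure D1:**
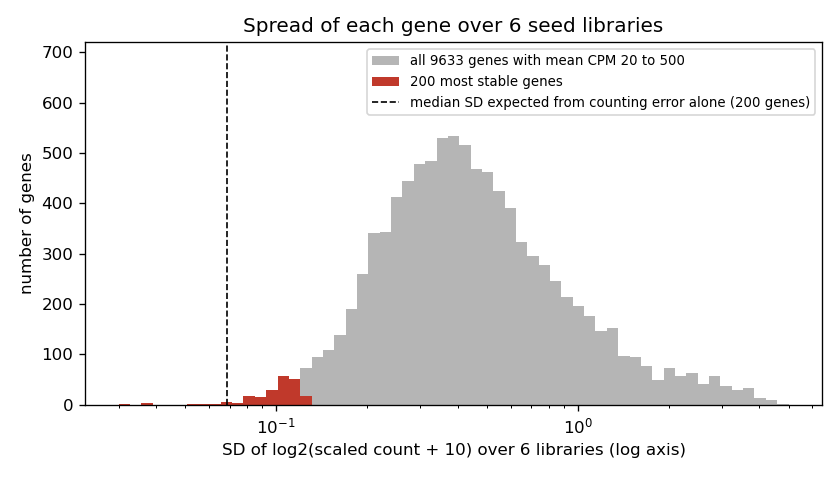
The number of genes is plotted against the SD of log2(scaled count + 10) over 6 libraries, on a log axis, for the 9633 genes (grey) and the 200 chosen (red), with the median SD that counting error alone gives for the 200 as a dashed line. The list is the left edge of 1 continuous distribution and lies mostly to the right of the dashed line at 0.0686.

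Counting error sets a floor under such a small spread. For the counts of the members, counting alone would give an SD of 0.02 to 0.09, with a median of 0.0686, so the observed SD was a median of 1.48 times that of counting. Over the 9633 genes the observed SD was a median of 6.39 times the counting SD. For 103 of the 200 members the ratio was at most 1.5, against 106 of the 9633 genes. It was at most 2 for 164 members, against 322 of the 9633 genes. An SD at or below the counting SD was found for 10 genes of the 9633, and all of them are members. At this depth the order among such genes cannot be resolved. The rule took the smallest SDs, so the contrasts of these ratios between members and the 9633 genes follow largely from it.

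The flattest gene was BnaA07g25400D, a gene of 549 bases on chromosome A07. Its scaled counts were 372, 369 and 372 in control seeds of days 30, 40 and 50, and 352, 356 and 367 in droughted seeds. Its SD of 0.0325 was 0.436 times the counting SD, and the 3 drought values all lay just below the 3 control values.

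BnaC08g37960D, with 1271 bases on C08, followed with scaled counts of 279, 288 and 288 in control and 272, 280 and 271 in drought. BnaC04g02920D, a long gene of 6174 bases on C04, had 545, 520 and 555 in control and 535, 520 and 535 in drought. BnaC05g00060D, with 4127 bases on C05, had 570, 553 and 599 in control and 583, 581 and 575 in drought. In all 3 the control and drought values overlapped, and each had its highest value in the control library of day 50.

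BnaA04g06890D on A04 had 752, 720 and 797 scaled counts in control and 720, 756 and 743 in drought. BnaA09g21880D on A09 had 429, 395 and 401 in control and 406, 410 and 437 in drought. BnaC07g08870D on C07 had 913, 918 and 972 in control and 986, 984 and 1001 in drought. The last of these was higher in drought on every day, by 0.04 to 0.11 on the log2 scale, while the control and drought values of the other two overlapped.

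BnaC07g47610D on C07 had 325, 309 and 351 scaled counts in control and 313, 319 and 317 in drought. BnaC05g14140D on C05 had 420, 405 and 406 in control and 397, 446 and 439 in drought. BnaCnng26740D, which is assigned to the C subgenome without a chromosome, had 745, 715 and 759 in control and 791, 694 and 729 in drought. None of the 10 flattest genes differed by more than 1.14-fold between its highest and lowest library.

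**Figure D2:**
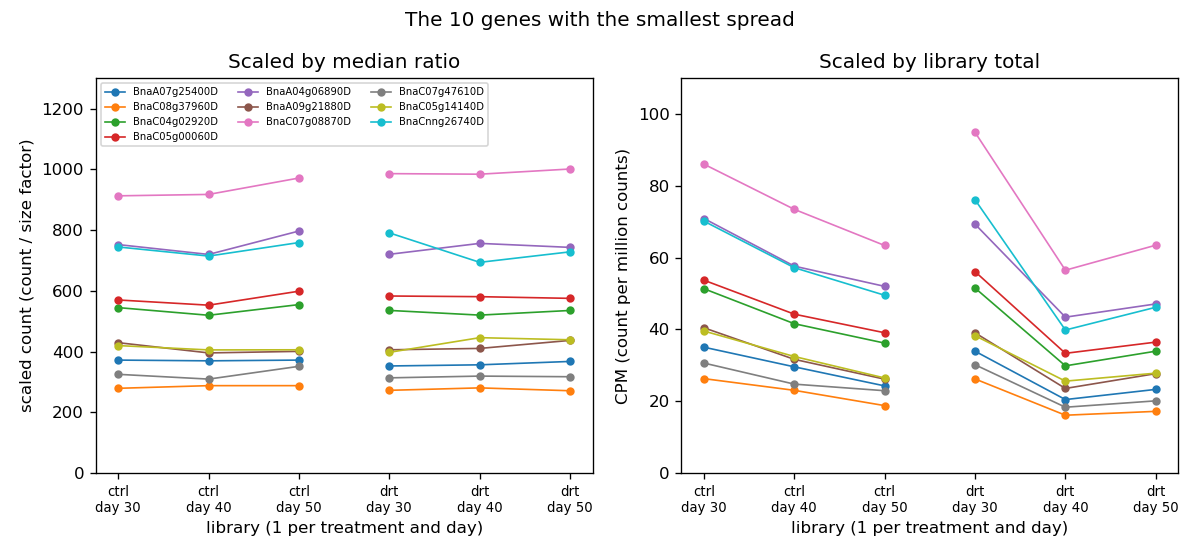
Values of the 10 genes with the smallest SD in 6 libraries (control then drought, days 30, 40 and 50; 1 library each), as scaled counts on the left and as CPM on the right, with lines joining the days of a treatment. The scaled counts run flat, while the CPM of every gene is higher at day 30 than at day 40 or 50 in both treatments.

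At the ends of the list's range the picture was alike. BnaC03g78230D on C03, with 1924 bases, had the highest mean level at 373 CPM. Its scaled counts were 5060, 4661 and 5088 in control and 4813, 5278 and 4607 in drought. With so many reads its counting SD was only 0.0208, and its SD of 0.08 was 3.74 times that value. It is 1 of 5 members whose SD exceeded counting by more than 3 times, where 8421 of the 9633 genes did. Its movements between libraries were thus better resolved than those of most members. The member of lowest mean level, BnaC08g07140D at 20.1 CPM, had 268, 253 and 248 scaled counts in control and 285, 247 and 271 in drought. Its SD of 0.08 was 0.921 times the counting SD.

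The largest differences between day 30 and day 50 within the list were small. BnaC02g45230D had the largest positive difference from day 30 to day 50 over both treatments, 0.25 on the log2 scale. Its scaled counts were 296, 320 and 353 in control and 283, 306 and 339 in drought, higher at each later day in both. BnaA09g10240D had the largest negative difference, at -0.23. Its scaled counts were 349, 302 and 295 in control and 341, 321 and 289 under drought. In both genes the day 30 and day 50 values did not overlap, but the size of the difference is bounded by the rule.

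The rule and the scaling hold the list near its mean in every library. The median deviation of the 200 genes from their own means lay between -0.01 and 0.01 on the log2 scale in every library. The highest value of a member fell in the control libraries of days 30, 40 and 50 for 19, 34 and 39 genes, and in the drought libraries for 34, 32 and 42. The lowest value fell there for 36, 40 and 31 genes in control and 21, 42 and 30 in drought. Single members deviated by at most 0.23 in either direction.

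Between pairs of libraries, members moved by at least 1.2-fold in few cases and never by 2-fold. Drought and control differed by at least 1.2-fold for 3 members at day 30, where 25.7% of the 9633 genes did. At day 40 they did for 15 members, against 62.5% of all, and at day 50 for 12 members, against 70.2%. From day 30 to day 50, 11 members differed by that much in control, against 70.4%, and 14 in drought, against 78.7%. At least 2-fold differences were found for 0 members in these comparisons, where the shares of all genes were 0.986%, 10.2% and 19.9% for drought at days 30, 40 and 50, and 23.6% and 36.2% for age in control and drought. The rule used each of these contrasts, so nothing is read from the low counts. Counts of genes past 1.2-fold or 2-fold, and the range of 1.05 to 1.30-fold above, are on the scale of scaled count + 10, which slightly understates a fold.

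The steadiness of the list holds relative to the median gene and not as a share of the RNA pool. Together the 200 genes held 1.09% of all counts in control seeds at day 30. On days 40 and 50 they held 0.921% and 0.767%. In droughted seeds they held 1.13%, 0.670% and 0.742%. The 95% exact binomial intervals reach at most 0.00583 percentage points to either side and cover counting error only. The share was thus highest in both day 30 libraries, and lowest in the day 40 library under drought, with a ratio of 1.68 between the highest and the lowest.

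The median CPM of the members was 41.5, 34.3 and 28.9 in control and 43.3, 25.4 and 28.3 in drought. The 9633 genes moved alike, with a median of 41.1, 35.8 and 30.0 CPM in control seeds and 42.4, 26.8 and 30.1 in droughted ones. Their summed share ran from 59.6% in drought at day 30 to 42.0% in drought at day 40, so the lower share is not a trait of the 200 genes alone. The median scaled count of the 200 members was 440, 428 and 442 in control and 449, 442 and 446 in drought. The CPM of a single member had a coefficient of variation of 14.4% to 29.4% over the 6 libraries, with a median of 22.4%. On scaled counts that median was 7.46%. In the same libraries the 100 most abundant genes of each held 11.6%, 23.2% and 34.2% of counts in control and 10.5%, 40.1% and 30.1% in drought. Their share was lowest where that of the 200 members was highest, and highest where that of the members was lowest.

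**Figure D3:**
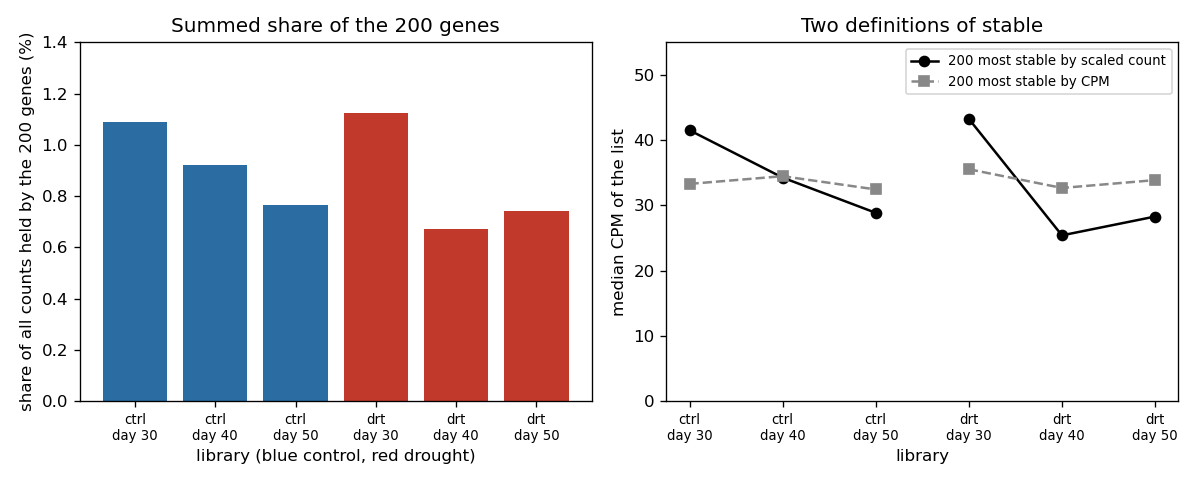
Left, the share of all counts held by the 200 genes in each library (blue control, red drought); right, the median CPM of the 200 genes (black) and of the 200 genes that vary least in CPM (grey), with lines joining days. The share runs from 0.670% to 1.13%, and the median CPM of the black list is above that of the grey list in both day 30 libraries and below it at day 50.

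When stability was defined by CPM instead, another set of genes came out, with 0 genes in common with the 200. The CPM list had a median of 33.3, 34.5 and 32.4 CPM in control and 35.5, 32.7 and 33.9 in drought. On the scaled counts, its median was 353, 431 and 497 in control and 369, 569 and 534 in drought, higher on both later days than at day 30. Which genes count as steady in these seeds therefore rests on the reference, the median gene or the total RNA counted.

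The members were spread over the genome much like the 9633 genes. Of the 200, 93 belong to the A subgenome, 106 to the C subgenome and 1 to neither, so A holds 46.5% of the members and 48.9% of the 9633 genes. Without a chromosome are 24 members, of which 8 belong to A and 15 to C. The others lie on all 19 chromosomes, from 3 on A06 to 20 on C03. As a share of the 9633 genes on the same chromosome, members ran from 0.664% on A06 to 2.78% on C08. On a chromosome, 3 pairs of members lie within 50 steps of the ID number, where neighbouring genes usually differ by 10. Such pairs were not counted for other sets of genes, so nothing is read from their number. In the pair with adjacent IDs, BnaA07g15150D had scaled counts of 288, 291 and 313 in control and 298, 353 and 323 in drought. Its neighbour BnaA07g15160D had 756, 800 and 870 in control and 824, 873 and 759 in drought. Reads from near-identical A and C copies may be shared between genes, and how the authors assigned them is not given in the sources used here.

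In level the members were close to the other genes, except at the top. Their mean level had a median of 33.3 CPM against 35.3 for the 9633 genes. Of the members, 77 had a mean of 20 to 30 CPM, 73 of 30 to 50, 41 of 50 to 100 and 9 of at least 100 CPM. The last class held 4.5% of the members and 9.86% of the 9633 genes. Per length, the members' mean FPKM in the authors' files ran from 3.55 for BnaA09g36650D to 241 for BnaA10g06670D, with a median of 20.1 against 25.4 for all. These last 2 genes were named after their values were seen.

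Gene length differed more between the members and the rest. The members had a median of 1967 bases, with quartiles of 1514 and 2653, where the 9633 genes had 1805, with quartiles of 1186 and 2734. The quartiles thus lie closer together in the list. Genes of up to 1000 bases made up 6% of the members, 12 genes, against 17.8% of all. Genes over 1500 and up to 2500 bases made up 46% of the members, 92 genes, against 32.7% of all. The shortest member, BnaA05g03120D with 429 bases, had scaled counts of 345, 328 and 328 in control and 291, 375 and 314 in drought. The longest, BnaA01g25320D with 6461 bases, had 355, 293 and 347 in control and 296, 334 and 349 in drought.

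**Figure D4:**
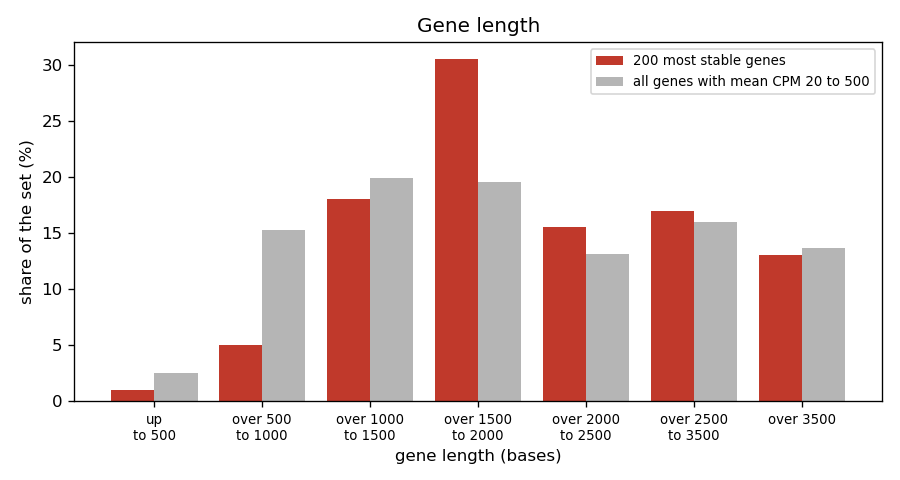
The share of genes in each class of gene length, for the 200 genes (red) and the 9633 genes with a mean CPM of 20 to 500 (grey). Classes of up to 1000 bases hold fewer of the members, 6% against 17.8%, and the class over 1500 and up to 2000 bases holds more, 30.5% against 19.6%.

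The day 40 library under drought moved with gene length. Among the 9633 genes, the median log2 difference of drought from control at day 40 was 0.48 for genes of up to 1000 bases and 0.01 for genes over 1500 and up to 2500. For genes over 3500 bases it was -0.41. At days 30 and 50 the medians of the 5 length classes lay between -0.09 and 0.16. When that library was left out of the choice, 36% of the 200 genes then chosen were over 1500 and up to 2500 bases long, against 46% with it. Those over 3500 bases made up 20.5% of that list and 13% of the members. Leaving out any of the other libraries gave 44.5% to 48% in the middle class. Lists chosen on the 3 control or the 3 drought libraries alone had 38% and 38.5% there. The drought list used the day 40 library under drought. Genes of up to 1000 bases made up 17.5% of the drought list, against 18.3% of the genes it was chosen from. They made up 11.5% of the control list, against 17.2%. Without the day 40 library under drought they made up 11%, against 17.1%. Leaving out any of the other libraries gave 5.5% to 10%, against 17.6% to 18.2%. The part of length in the choice of the other members was not tested.

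Whether steadiness in some libraries carries over to another was read by choosing 200 genes without that library and then reading them in it. Only the scale of the left-out library entered. Genes chosen on 5 libraries were at least 1.2-fold off their mean in the control library of day 30 in 33 of 200 cases, where 59.9% of all genes with a mean of 20 to 500 CPM were. In the control libraries of days 40 and 50 the counts were 38 and 42, against 46.6% and 54.3%. In the drought library of day 30 the count was 29, against 58.5%. In these 4 libraries, 14.5% to 21% of the chosen genes were off. By 2-fold 0 of them were off, where 16.4%, 4% and 9.87% of all genes were in control at days 30, 40 and 50 and 16.4% in drought at day 30.

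The counts were higher for the late drought libraries. Genes chosen without the day 40 library under drought were at least 1.2-fold off there in 100 of 200 cases, against 62.2% of all genes. For the day 50 library under drought the count was 117 of 200, against 74.7%. With library totals in place of size factors, 77.5% of the genes then chosen were off at day 40 under drought, against 73.7% of all genes, so that the order turned round. With size factors, 3 at day 40 and 9 at day 50 were at least 2-fold off, or 1.5% and 4.5%, where 10.1% and 28.0% of all genes were. The median absolute deviation of the chosen genes was 0.26 and 0.31 on the log2 scale, where counting error would give 0.06 and 0.05. In the other 4 libraries it was 0.12 to 0.17. The lists without these libraries shared 91 and 79 genes with the 200, and those without one of the others 129 to 149.

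Deviations in left-out libraries differed with length in several libraries, over the widest range at day 40 under drought. Of the 200 genes chosen without that library, the 41 over 3500 bases had a median of -0.52 on the log2 scale there, and the 22 of up to 1000 bases had 0.24. The 72 genes over 1500 and up to 2500 bases had -0.10. Over all genes of these classes the medians were -0.44, 0.44 and 0.01. In the control library of day 50 the order was opposite: the medians of the genes chosen without it ran from -0.17 for those of up to 1000 bases to 0.11 for those over 3500, and of all genes from -0.26 to 0.21. At day 50 under drought the chosen genes had medians of -0.29 to 0.28 over the 5 length classes, and all genes -0.22 to 0.25. Length was not separated from level or other properties of the genes.

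Genes flat in control seeds alone were often off in late drought. The 200 genes that varied least over the 3 control libraries had SDs of at most 0.0441. Read in droughted seeds, 28 of them were at least 1.2-fold off the control mean at day 30, against 48.8% of all genes. At day 40 the count was 108, against 62.7%, and at day 50 it was 125, against 74.6%. At least 2-fold deviations were found for 0, 3 and 15 of them, against 10%, 9.72% and 28% of all genes. With library totals in place of size factors, 84.5% of the genes then chosen in control were 1.2-fold off at day 40 under drought, against 74.5% of all genes, so that the chosen genes were off more often than the rest. In bins of 200 genes by control SD, the first 2000 genes were off in 49.5% to 59.5% of cases at day 40 and 59% to 72.5% at day 50, where the first 200 were off in 54% and 62.5%. The share was higher among the most variable genes, with 94% and 98% at ranks 9601 to 9800.

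The reverse choice gave lower values at day 40 and day 50, though the libraries read and the genes differ. Of the 200 genes that varied least over the 3 drought libraries, 23 were at least 1.2-fold off in the control library of day 30, against 62.1% of all. At days 40 and 50 the counts were 82 and 93, against 56.2% and 55.8%. Above their drought level lay 70 of the 200 at day 40 and 65 at day 50, where 46.7% and 49.8% of all genes did. With TMM factors, another set of scaling factors, the counts above were 90 and 73, against 51.1% and 53.4% of all genes. With library totals they were 96 and 56, against 64.2% and 41.5%. On that scale 58.5% of the genes then chosen were at least 1.2-fold off in the control library of day 50, against 56.8% of all genes. The difference between both directions of choice was not tested, since each treatment had 1 library per day.

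**Figure D5:**
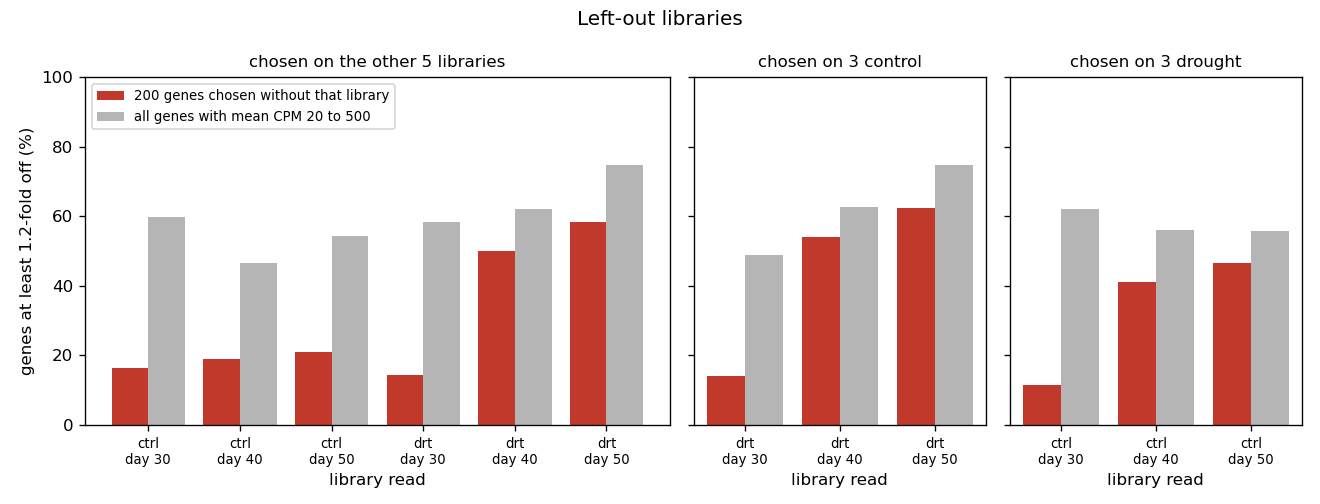
The percentage of genes at least 1.2-fold off in a library that was left out of the choice, for the 200 genes chosen without it (red) and all genes with a mean CPM of 20 to 500 (grey), when chosen on the other 5 libraries, on 3 control or on 3 drought libraries. The red bars are at 14.5% to 21% for control libraries and drought at day 30 in the left panel, and at 50% and 58.5% for drought at days 40 and 50.

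The control and drought lists had 6 genes in common, of which 5 are also members. The lists held 200 genes each, chosen from 9948 genes in control and 9204 in drought. Unrelated lists of that size would also share a few genes, so nothing is read from the overlap. BnaA07g25400D and BnaC05g14140D, described above, are among these 5. BnaA10g16600D had scaled counts of 606, 562 and 578 in control and 553, 512 and 536 in drought, so that all drought values lay below all control values. BnaC03g66940D had 292, 289 and 303 in control and 319, 324 and 338 in drought, with all drought values above. BnaA03g26110D had 317, 305 and 310 in control and 339, 371 and 337 in drought, again above. In these 3 genes, values flat within each treatment lay apart between treatments, by up to 0.28 on the log2 scale for BnaA03g26110D at day 40. Their SDs over the 6 libraries were 1.36, 1.08 and 1.32 times the counting SD. Whether their level differs between treatments was not tested. These 3 genes are named because they are in both lists, a choice made after their values were seen.

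The authors' FPKM gave a second reading of the same libraries, scaled by length in a way that is not given in the sources used here. For most members it moved with the counts. The SD over 6 libraries of the log2 ratio of FPKM to scaled count had a median of 0.0435 for the members and 0.0419 for 9407 genes with at least 20 counts in each library. It exceeded 0.3 for 10 members, or 5%, against 2.92% of those genes. The clearest case among the flattest genes was BnaC05g00060D. Its FPKM was 71.9, 31.9 and 28.8 in control and 21.6, 65.6 and 73.5 in drought, a 3.39-fold range where its scaled counts spanned 1.08-fold. BnaC04g32220D, with 6161 bases, had 9.62, 9.63 and 8.67 FPKM in control and 8.57, 22.5 and 35.4 in drought, while its scaled counts lay between 498 and 609. For such genes flat counts and flat FPKM are not the same statement, and BnaA01g25320D and BnaA03g42550D, named above, are also among the 10.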

How the data were processed

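The authors deposited raw counts per gene for 6 libraries with 1 gene length each, and 1 FPKM file per library; the headers of the latter give no unit. They were read as FPKM because the submitters' processing notes name Cufflinks. Neither aligner, counting tool, build nor strand use is given in the sources used here. Counts were used as deposited. Size factors were median ratios over 50143 genes counted in all libraries. The counting SD is the Poisson SD of log2(scaled count + 10). For a left-out library, level limits and genes came from the libraries used. Its size factor was the median ratio of its counts to the geometric mean of those libraries. TMM factors and those from library totals were set once over all 6 libraries. With 1 library per treatment and day, and every contrast used by the rule, no test was run. The 200 genes, the lists and the comparisons were chosen with earlier results of these data known. The rule for named genes took the 10 smallest SDs, the extremes of level, length and age change, the genes at the edge, and any gene kept by every alternative. Selection was run on simulated counts in which 200 planted genes varied by counting error only and other genes by random changes. The real list is the edge of a continuous distribution, so this checks the code and not the list. Python 3.11.15, pandas 2.3.3, R 4.3.3 and edgeR 4.0.16 (TMM factors only) were used.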

Additional observations from a re-analysis of the deposited data

How the results depend on the processing

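The list of 200 depended on scaling and on the libraries, less on the pseudocount. It shared 195 genes with the list at a pseudocount of 1, 174 with TMM factors, 161 with a ranking on ratios between genes, 146 with size factors over the 9633 genes, 144 when ranked by the ratio to the counting SD, 134 with FPKM, and 200 with no upper level limit. It shared 108 genes from 10 to 500 CPM, and 0 with library totals. It shared 0 without a filter on low values, where all 200 genes had no count. Without 1 library it shared 79 to 149, lowest without drought at day 50, and 31 and 66 with the 3 control or 3 drought libraries only. Lists of 100 and 400 genes held 100 and 200 of them by construction. No gene was in all 20 alternative lists, which was fixed in advance, since the list without a filter holds only genes with no count.

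With library totals the median length was 1568 bases, the ratio of highest to lowest summed share 1.07, and 596 of 3000 member values were at least 1.2-fold apart over 15 library pairs, against 184. From 10 to 500 CPM the median level was 22.1 CPM, the median length 1808 bases and that count 73. The cause was not tested. Each list was itself chosen for a small spread, and no share of all genes over these pairs is given, so nothing is read from the counts.

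For left-out libraries with library totals, 31.5%, 43.5%, 28.5% and 77.5% of genes chosen on 5 libraries were 1.2-fold off in control days 40 and 50 and drought days 30 and 40, and 28% and 84.5% of genes chosen in control in drought days 30 and 40. The all-gene shares were 49.3%, 60.6%, 75.5% and 73.7%, and 65.3% and 74.5%. At drought day 40 the chosen genes were thus off more often than all genes. The same held for genes chosen in drought and read in control day 50, with 58.5% against 56.8%. By level, control day 40 had 9.76% at 50 to 100 CPM and 33.3% of 9 genes at 100 to 500 CPM. All genes of these classes had 49.7% and 58.1%. Drought day 30 read in genes chosen in control had 2.78% and 7.69% in these classes, against 50.7% and 59.9% of all genes. At 100 to 500 CPM, 0% of 8, 8 and 11 genes were off in control and drought day 30 (5 libraries) and control day 30 (chosen in drought). The all-gene shares of that class were 72.1%, 71.0% and 76.4%. The other 85 settings stayed within 1.5 times of the value reported or its interval. No paired analysis was run, and no result here comes from a test, because the rule used the drought contrast of each day. The labels give no replicate numbers. Depth limits the order among members: their counting SD was a median of 0.0686.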

Other observations

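Single members were held by 5 to 18 of the 20 alternative lists, with a median of 12.5. The lists by library totals and without a filter on low values held 0 members, so 18 was the most possible. The lists of 400 genes and with no upper level limit held all 200. The genes held most often, by 18 lists each, were BnaC05g14140D and BnaA10g16600D, named here after their values were seen. Of the 200 genes, 42 were also in each of the 6 lists chosen without 1 library.

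The 10 members whose FPKM and counts moved apart had a median length of 3153 bases, and the 275 such genes among 9407 had one of 2590 bases. BnaA08g02950D had 32.5, 56.3 and 66.8 FPKM in control and 101, 57.6 and 72.8 in drought, where its scaled counts lay between 400 and 479. BnaA01g25680D had 28.7, 29.5 and 21.9 FPKM in control and 33.4, 24.3 and 9.40 in drought, with scaled counts of 459 to 575. BnaA03g54790D had 151 FPKM in the drought library of day 40 and 58.3 to 69.8 in the others, with scaled counts of 888 to 1052.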
